A study of Homo sapiens with 17 samples.

Results

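Lone exon regions, as they are called here, are regions of an m6A pull-down table that carry an exon mark of exactly 1 gene. No exon of that gene is listed outside the region within 10000 bp on either side. They were chosen from the annotation columns alone: the overlap column had to hold a single gene with an exon mark, alone or together with a promoter mark, and the gene could not be named among the neighbouring exons to the left or right. The rule found 4260 of 77311 regions in 22Rv1, 4811 of 110260 in LNCaP and 5555 of 139373 in HPr1AR. They belong to 2918, 3220 and 3558 genes in that order of lines, 4285 genes in all, of which 2288 had such a region in all 3 lines. Most of these genes, 2098 in 22Rv1, 2268 in LNCaP and 2387 in HPr1AR, had 1 such region.

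RNA fragments were pulled down with an m6A antibody or with IgG, using the EpiMark N6-methyladenosine enrichment kit, from vehicle-treated cells of wild-type genotype. 22Rv1 (2 m6A and 3 IgG samples) is a human prostate cancer line that came from a xenograft which grew back after castration, LNCaP (3 and 3) is an androgen-responsive line from a lymph node metastasis, and HPr1AR (3 and 3) is a non-malignant prostate epithelial line. All groups thus share the vehicle, and the contrast within a line is m6A against IgG. Of 7 luminal prostate genes, 7 had listed exon regions in 22Rv1, 7 in LNCaP and 3 in HPr1AR, where KLK3, KLK2, TMPRSS2 and FOLH1 had none. Of 5 basal genes 1, 1 and 5 had listed exon regions in the same order, and the basal keratin genes KRT5 and KRT14 were listed in HPr1AR but in neither cancer line. Each deposited table gives a single m6A comparison of its line with no figures for separate samples. Every value below is therefore 1 value per line, and its interval covers counting error only.

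N6-methyladenosine is laid down on newly made RNA by a complex around the methyltransferase METTL3, mostly within the sequence context DRACH, of which GGACT is a common form in DNA letters. Exon junction complexes, placed on RNA where introns are removed, keep the methyltransferase away from nearby sequence. Methylated sites are therefore known mainly from long internal exons, last exons and genes without introns. Lone exon regions include such genes: intronless genes such as histone, Frizzled and claudin genes, and the first, last or solitary exons of genes with long introns. The rule does not count the exons inside a region, so a region that covers a whole short gene may hold several exons. The GSTP1 region in HPr1AR, for example, is 2970 bp wide in a gene spanning 2842 bp.

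Among the short RNA genes named by the rule were 10 microRNA genes, and all had mature sequences in RefSeq (GRCh38.p14). The 17 mature sequences held 17 different seeds, so no seed was shared. One mature strand is shown for each gene that was higher by the read ratio in at least 1 line, since these genes carry the finding. The strands run 5′ to 3′ with bases 2 to 8, the seed, in capitals.
miR-34a-5p: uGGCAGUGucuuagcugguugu
miR-29c-3p: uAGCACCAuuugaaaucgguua
miR-570-3p: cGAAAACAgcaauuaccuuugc
miR-4786-5p: uGAGACCAggacuggaugcacc
miR-138-5p: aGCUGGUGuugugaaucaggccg
miR-614: gAACGCCUguucuugccaggugg
miR-3916: aAGAGGAAgaaauggcugguucucag
The miR-4786 strand holds GGAC just after its seed, and its hairpin was the only one of 9 member hairpins with these letters, against 427 of 1562 hairpins (27.3%) in the whole table.

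In short genes, most lone exon regions carry a promoter mark beside the exon mark, so the start of the transcript is shown here. Among 226 genes spanning at most 10000 bp whose promoter-and-exon region was higher in all 3 lines by the read ratio described next, 156 matched a RefSeq promoter window, and 10 of these (6.41%) held GGACT on the transcribed strand within the first 50 transcribed bases, against 1352 of 27305 promoters (4.95%). The share was 3.68% for long genes higher in all 3 lines and 4.35% for genes whose regions were higher in none. Over the 300 bases of the window and both strands (GGACT or AGTCC), 44.9% of the short genes higher in all 3 lines and 41.2% of the genes higher in none held the letters, against 44.2% of all promoters, so the motif was about as frequent in the member genes as elsewhere. A match is a string of letters, not a site shown to be methylated. The runs below, each of the transcribed strand with GGACT in capitals and with GRCh38.p14 positions, belong to genes with many m6A reads in all 3 lines.
MAGEF1 (chr3:184712026-184712050, minus strand): gcgcgggcgcGGACTgaggctgcgc
KLHL9 (chr9:21335381-21335404, minus strand): ggtatcctgGGACTaggcttttcc
BOLA1 (chr1:149899588-149899612, plus strand): aagggcgccaGGACTgcattttgct
GADD45B (chr19:2476133-2476157, plus strand): ccgaagcgtcGGACTaccgttggtt
SOWAHB (chr4:76898116-76898140, minus strand): ttcgctgtgaGGACTcgttgcgaga

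Each region is represented by its leading window. The deposited log2 fold of that window runs from 14.03 to 31.62 over the 3 tables and is no ordinary ratio, so whole reads of both pull-downs were rebuilt from the fold and the p-value. The read ratio is the m6A reads over the rebuilt m6A depth, divided by the IgG reads over the rebuilt IgG depth, on a log2 scale. That the numerator is the m6A pull-down is taken from the names of the tables, which do not state it. The fitted depths were 3298452 m6A and 4820104 IgG reads in 22Rv1, 3922136 and 8871432 in LNCaP and 5133843 and 11715566 in HPr1AR. A region is called higher or lower where an exact two-sided binomial test passes an adjusted p of 0.05 (Benjamini-Hochberg over all regions of the line). Where the IgG count is 0 the ratio is computed against 3 reads and is written as "at least". Where the deposited p-value was 0 or no pair of reads was found, the smallest reads that reach the p-value are given. The ratio is then again written as "at least". Neither kind of value is the lower limit of an interval. With 0 IgG reads that limit was lower, at 4.28 for BCL2 in 22Rv1, where the ratio is written as at least 4.63. It was 1.71 for HSPA6 in 22Rv1 (written as at least 2.28) and 5.31 for FZD1 in HPr1AR (at least 5.65). A single region is said below to pass or not by the binomial test, not by the deposited p-value.

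Lone exon regions were mostly higher in the m6A pull-down, and more often than regions at large. By the adjusted p of the authors' deposited table, 4252 lone exon regions (99.8%) passed 0.05 in 22Rv1, 4743 (98.6%) in LNCaP and 5510 (99.2%) in HPr1AR, against 99.3%, 95.4% and 96.5% of all regions, which leaves little room for any class to differ. By the read ratio, 2915 (68.4%) were higher in 22Rv1, where 54.4% of all regions were. In LNCaP 2860 (59.4%) were higher, against 37.5% of all regions, and in HPr1AR 3410 (61.4%), against 38% of all regions. The difference from the table was thus smallest in 22Rv1 and about alike in the other lines. Regions outside annotated genes were higher in 74.5%, 51.1% and 61.5% in 22Rv1, LNCaP and HPr1AR, and regions only in introns in 56.7%, 24.6% and 24.5%. A share above that of the table was thus not particular to lone exon regions, and in 22Rv1 regions outside genes exceeded them. Only 7, 3 and 2 lone exon regions were lower in 22Rv1, LNCaP and HPr1AR, against 0.752%, 0.0989% and 0.0911% of all regions, and 1, 82 and 15 had bounds too wide to place, against 0.00776%, 1.69% and 0.0502%. The median log2 read ratio was 2.55 in 22Rv1 (upper quartile 3.87), 2.35 in LNCaP (3.71) and 2.19 in HPr1AR (3.62), beside 2.09, 1.31 and 1.29 over all regions.

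These counts depend on what level is taken as no enrichment. Regions lying only in introns had a median log2 read ratio of 2.13 in 22Rv1, 0.59 in LNCaP and 0.70 in HPr1AR. With ratios centred on that median, 1125 lone exon regions (26.4%) were higher and 423 lower in 22Rv1, 2367 (49.2%) higher and 18 lower in LNCaP, and 2684 (48.3%) higher and 42 lower in HPr1AR. All regions then had 15.1%, 28.7% and 28.1% higher, so lone exon regions stayed above the table in each line, while the calls in 22Rv1 were cut by more than in the other lines.

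Among the classes of exon regions, lone exon regions were by the plain share closest to 3′ end regions and far from internal ones. Regions whose gene had exons within 10000 bp only upstream, called 3′ end regions, need not be last exons. They were higher in 66.6% of 22Rv1, 59.0% of LNCaP and 59.0% of HPr1AR regions. Those with exons only downstream, called 5′ end regions, were higher in 56.2%, 49.3% and 51.2%, and internal regions with exons on both sides in 31.8%, 25.1% and 27.8%. Lone exon regions were wider than internal regions and had more reads, and more reads make a call easier to reach. Their median width was 420 bp in 22Rv1, 490 bp in LNCaP and 480 bp in HPr1AR, and their median reads over both pull-downs were 22, 19 and 23. After internal regions were weighted to the same bins of windows and reads, 48.3%, 40.0% and 41.3% were higher, so the gap was 20.1, 19.5 and 20.1 percentage points in 22Rv1, LNCaP and HPr1AR. The gap to weighted 3′ end regions was 4.36, 6.65 and 6.68 points, and that to weighted 5′ end regions 6.17, 4.34 and 4.55 points. After weighting, 5′ end regions were thus the closer class in LNCaP and HPr1AR.

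**Figure D1:**
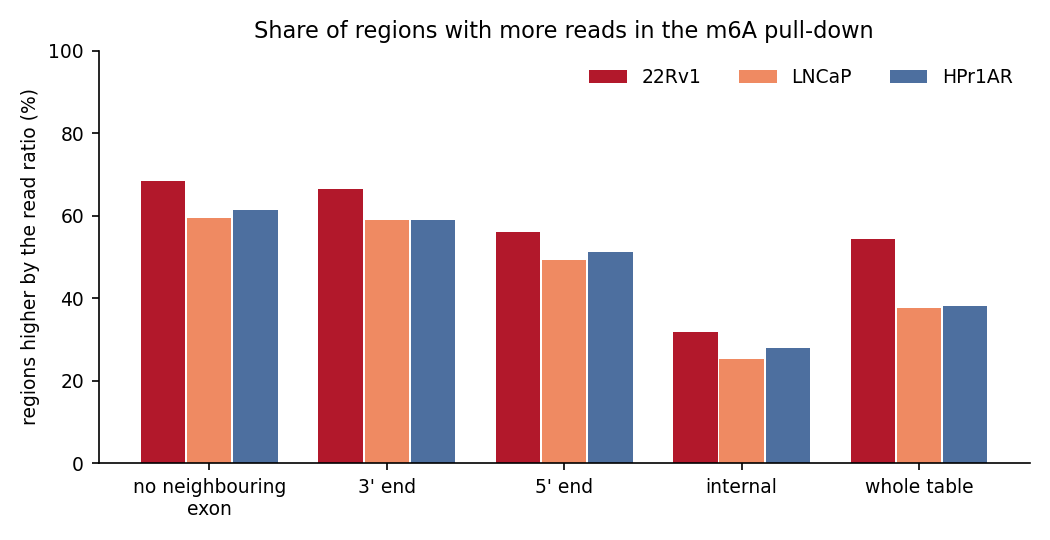
Bars give the percent of regions called higher by the read ratio (vertical axis) in 5 sets of regions, for 22Rv1, LNCaP and HPr1AR from left to right. Lone exon regions (68.4%, 59.4% and 61.4%) sit beside 3′ end regions and above internal regions (31.8%, 25.1% and 27.8%).

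The share of higher lone exon regions rose with width in each line. Among those of at most 100 bp, 21.8% were higher in 22Rv1, 10.6% in LNCaP and 12.9% in HPr1AR. Among those over 1600 bp, 93.0%, 93.6% and 91.8% were higher, with median log2 read ratios of 4.01, 3.76 and 3.32. In each of 6 width classes lone exon regions had a larger share of higher regions than 3′ end regions, and both had a larger share than internal regions. The widest class of internal regions reached 76.7%, 72.9% and 71.8%. Regions were built by joining windows, and width and reads were not separated in these shares. A wider region also holds more windows from which the leading one is picked for its p-value. That choice alone can raise the share with width, and it was not separated either.

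**Figure D2:**
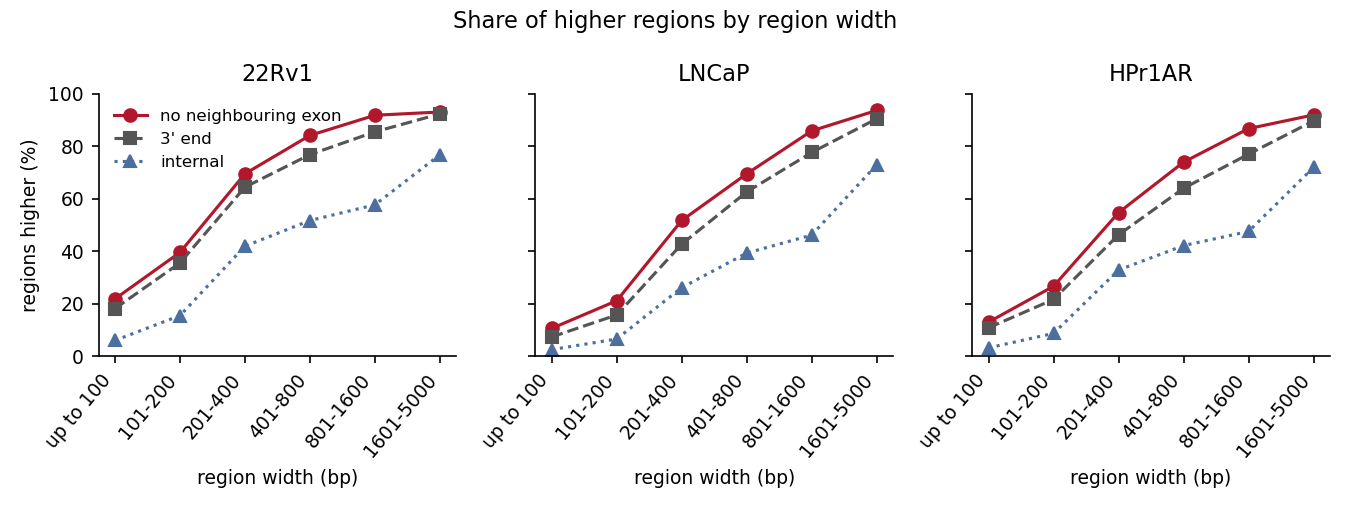
The percent of regions called higher (vertical axis) is drawn against classes of region width in bp (horizontal axis), 1 panel per line, for lone exon regions (circles), 3′ end regions (squares) and internal regions (triangles). Lone exon regions rise from 21.8%, 10.6% and 12.9% in the narrowest class to 93.0%, 93.6% and 91.8% in the widest in 22Rv1, LNCaP and HPr1AR.

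Regions just outside the 10000 bp limit of the rule were less often higher than its members. Those whose nearest own exon lay over 9000 and up to 10000 bp away were higher in 61.7% of 405 cases in 22Rv1, 50.4% of 498 in LNCaP and 52.5% of 598 in HPr1AR, with median log2 read ratios of 2.42, 1.91 and 1.85. For exon-only regions at the 3′ side, the share was 72.4%, 67.2% and 66.6% with the nearest exon over 500 and up to 1000 bp away, and 61.9%, 45.6% and 45.8% at over 9000 and up to 10000 bp. It was 73.7%, 62.4% and 63.5% in lone regions at the 3′ side of long genes. Among non-members the share was thus smaller next to the limit than near an exon. The share was larger in the lone regions, whose median width of 490, 630 and 580 bp exceeded the 375, 350 and 345 bp next to the limit. Sides were also defined otherwise in lone regions, by any listed region of a long gene over 10000 bp away. Non-members were placed by exons within 10000 bp, so exons farther downstream were not excluded. Lone regions were thus placed by another rule than the series by distance, at the 3′ side and at the start side alike. Promoter-and-exon regions at the start side did not follow this order in LNCaP and HPr1AR, with shares in 22Rv1, LNCaP and HPr1AR of 66.7%, 60.5% and 65.9% over 500 and up to 1000 bp away, 76 of 117, 89 of 130 (68.5%) and 110 of 154 (71.4%) next to the limit, and 69.0%, 66.0% and 71.9% in the lone regions.

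The members divided sharply by where they lay in their gene. In genes spanning at most 10000 bp in RefSeq, regions with promoter and exon marks were higher in 84.6% of 434 regions in 22Rv1, 84.9% of 463 in LNCaP and 83.6% of 507 in HPr1AR, with median log2 read ratios of 3.23, 3.18 and 3.02. These regions were as wide as a median of 70.0%, 83.4% and 79.2% of the gene's span, and 62.7%, 67.4% and 66.5% of them exceeded 50% of it. In short genes, regions with an exon mark alone were as wide as 5.40%, 9.02% and 8.02% of the span and were higher in 68.5%, 58.2% and 58.6%. Short promoter-and-exon regions thus had the largest share among the 5 groups drawn in the plot by gene length and position, and centring left them at 43.3%, 75.2% and 70.8%. They were also wide, at a median of 1695, 1900 and 1700 bp, with 58, 57 and 57 reads. Of all lone exon regions over 1600 bp, 93.0%, 93.6% and 91.8% were higher. Position was not separated from width and reads here. An undrawn group, promoter-and-exon regions of long genes with no other region over 10000 bp away, was higher in 97.1% of 35, 86.7% of 30 and 86.0% of 43.

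In genes over 10000 bp, lone regions were placed by the gene's other regions, with any mark and in any of the 3 tables, that lay more than 10000 bp away. Exon-only regions with such regions only upstream, here called the 3′ side, were higher in 73.7% of 1184 regions in 22Rv1, 62.4% of 1205 in LNCaP and 63.5% of 1297 in HPr1AR, with medians of 3.13, 2.76 and 2.73. They came from 808, 861 and 888 genes, so a gene could give several of them. Those with such regions on both sides, here called middle regions, were higher in 46.4% of 707, 32.2% of 977 and 33.4% of 1256, with medians of 1.77, 1.18 and 1.19. Middle regions were also narrower, at a median of 190, 180 and 190 bp against 490, 630 and 580 bp on the 3′ side. Within the width class over 100 and up to 200 bp, middle lone regions were higher in 22.1%, 9.62% and 13.9%, and internal regions whose nearest exon lay over 5000 and up to 9000 bp away in 15.1%, 7.45% and 10.3%. Promoter-and-exon regions at the start side of long genes were higher in 69.0% of 1535, 66.0% of 1689 and 71.9% of 1919 regions, again in the order 22Rv1, LNCaP and HPr1AR. The order of the 3′ side and the middle held after centring, with 38.1%, 54.9% and 56.4% against 18.7%, 27.0% and 24.2%.

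**Figure D3:**
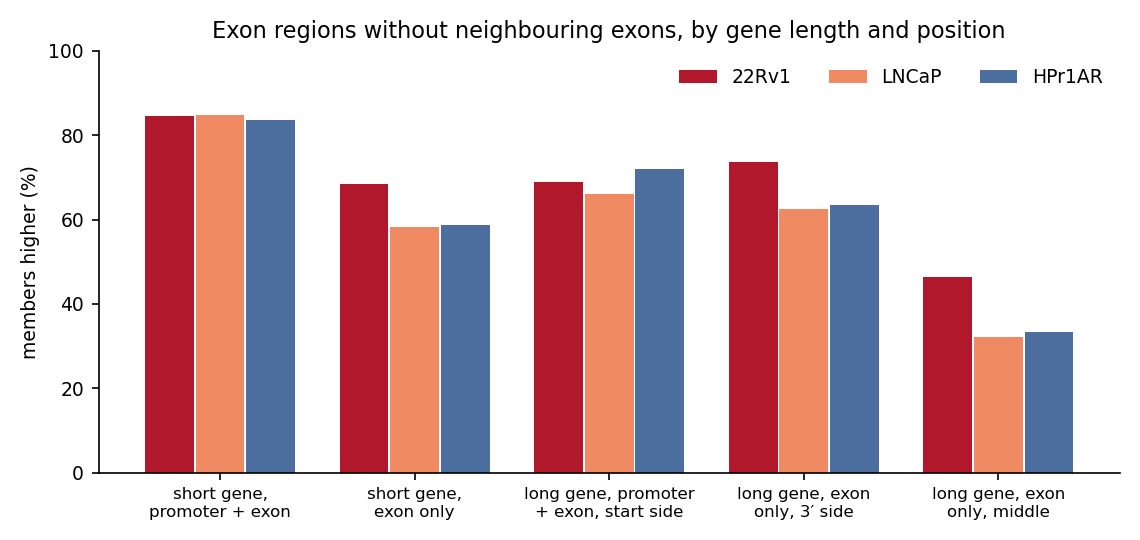
Bars give the percent of lone exon regions called higher by the read ratio (vertical axis) in 5 groups set by gene span, marks and the side of the gene's other regions, for 22Rv1, LNCaP and HPr1AR from left to right. Promoter-and-exon regions of short genes (84.6%, 84.9% and 83.6%) are highest and middle regions of long genes (46.4%, 32.2% and 33.4%) lowest.

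A pair of further features moved with the call. Lone exon regions with another gene listed within 10000 bp were higher in 74.8%, 69.8% and 71.1% in 22Rv1, LNCaP and HPr1AR, and those without one in 67.0%, 57.2% and 59.4%. Regions of transcribed pseudogenes were higher in 84.7%, 70.2% and 82.4% and those of long non-coding RNA genes in 79.1%, 68.4% and 70.3%, against 67.7%, 59.1% and 60.8% of protein-coding ones. Reads of a pseudogene and its parent gene could not be told apart with the columns at hand. The strand of the gene made little difference, with 68.1% against 68.8% in 22Rv1, 60.3% against 58.5% in LNCaP and 61.4% against 61.4% in HPr1AR for plus against minus.

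The lists below are read against the shares of all lone exon regions, which were 68.4%, 59.4% and 61.4% higher in 22Rv1, LNCaP and HPr1AR and 26.4%, 49.2% and 48.3% after centring. Among genes that regulate transcription, nearly all regions of the first 2 lists were higher before centring. For the immediate early and lineage factors (JUN, C/EBP, MAF and IER genes), 6 of 6 regions were higher in 22Rv1, 5 of 5 in LNCaP and 5 of 5 in HPr1AR, and 2, 5 and 3 after centring. JUNB, a partner in the AP-1 factor, had at least 68 m6A reads and 12 IgG reads in 22Rv1 (log2 read ratio at least 3.05), at least 58 and 10 in LNCaP (at least 3.71) and at least 63 and 59 in HPr1AR (at least 1.28). CEBPB, a leucine zipper factor of inflammation and differentiation, had ratios of at least 2.28 in 22Rv1 and 4.04 in LNCaP, and at least 62 m6A and 50 IgG reads in HPr1AR. Both were thus higher in every line, with the lowest bound in HPr1AR. SOX, FOX and POU genes were higher in 9 of 10, 9 of 9 and 8 of 9 regions, and in 4, 9 and 8 after centring. SOX4, an HMG-box factor, had ratios of at least 3.05, 3.15 and 2.80, and SOX11 had 45 m6A reads and 1 IgG read in 22Rv1 (6.04, 95% interval 3.49 to 11.37) and 44 and 1 in LNCaP (6.64, 4.08 to 11.97). C2H2 zinc finger and BTB genes, which often end in a long coding exon, formed the largest protein-coding list, with 149 of 181 regions higher in 22Rv1, 136 of 178 in LNCaP and 127 of 172 in HPr1AR, and 87, 124 and 114 after centring.

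Cell surface genes were nearly all higher before centring. Frizzled and other seven-pass receptor genes were higher in 16 of 17 regions in 22Rv1, 12 of 12 in LNCaP and 10 of 10 in HPr1AR, and in 6, 12 and 8 after centring. FZD7, a receptor for Wnt proteins, had 59 m6A reads and 1 IgG read in 22Rv1 (6.43, 3.90 to 11.76), at least 56 and 2 in LNCaP (at least 5.98) and at least 66 and 0 in HPr1AR (at least 5.65). FZD1, another Wnt receptor, had ratios of at least 5.57, 4.04 and 5.65. Both genes were far above equal pull-downs in every line. Claudin genes, which encode tight junction proteins, were higher in all 5, 6 and 5 regions, and in 2, 5 and 5 after centring. CLDN4 had ratios of at least 3.61 in 22Rv1, 1.73 in LNCaP and 2.88 in HPr1AR. Protocadherin genes, adhesion genes with a long first coding exon, were higher in 39 of 40, 25 of 27 and 33 of 35 regions, and in 23, 22 and 31 after centring. PCDHB14 had 59 m6A reads and 1 IgG read in HPr1AR (7.07, 4.54 to 12.40) and 36 and 1 in LNCaP (6.35, 3.78 to 11.69). Beta protocadherin genes are near copies of each other, so reads may be split between them.

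Signalling and broadly expressed genes were mostly near the share of all lone exon regions. Small GTPase and adaptor genes were higher in 10 of 16 regions (62.5%) in 22Rv1, 12 of 13 (92.3%) in LNCaP and 11 of 18 (61.1%) in HPr1AR, and 5, 11 and 9 after centring, when 4 were lower in 22Rv1. ARF6, a GTPase of endocytosis, had ratios of at least 2.57, 1.73 and 0.81, and RHOB, a GTPase of the endosome and actin, at least 4.01, 3.15 and 2.49. Broadly expressed intronless genes were higher in 7 of 8 (87.5%), 7 of 11 (63.6%) and 8 of 11 (72.7%) regions, and 4, 7 and 7 after centring. TAF7, a subunit of the general factor TFIID, had at least 67 m6A reads and 10 IgG reads in 22Rv1, at least 64 and 50 in LNCaP and at least 63 and 51 in HPr1AR, with ratios of at least 3.29 in 22Rv1 and 1.53 in LNCaP. HSPA6, a stress-induced HSP70 chaperone, had a region higher in each line, with 10 m6A and 0 IgG reads in 22Rv1 (at least 2.28), 26 and 0 in LNCaP (at least 4.29) and 38 and 1 in HPr1AR (6.44, 3.87 to 11.78). Intronless genes of the olfactory, taste, keratin-associated and interferon families, not usually associated with prostate epithelium, were listed too, with 7 of 9, 9 of 11 and 14 of 17 regions higher and 4, 8 and 11 after centring. TAS2R5, a bitter taste receptor gene, had 25 and 0 reads, 21 and 0, and 43 and 3 in 22Rv1, LNCaP and HPr1AR.

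Before centring, histone genes fell below the share of all lone exon regions in 22Rv1 alone, while their median ratio was below in each line. They were higher in 4 of 19 regions (21.1%) in 22Rv1, 13 of 19 (68.4%) in LNCaP and 14 of 21 (66.7%) in HPr1AR, beside 68.4%, 59.4% and 61.4% of all lone exon regions, with median log2 read ratios of 0.03, 2.18 and 1.03, beside 2.55, 2.35 and 2.19. After centring 0 of 19, 10 of 19 and 8 of 21 were higher, beside 26.4%, 49.2% and 48.3% of all lone exon regions. The share was then below in HPr1AR too, and 11 were lower in 22Rv1. H4C3, one of many genes for histone H4, had 39 m6A and 66 IgG reads in 22Rv1 (-0.21, 95% interval -0.82 to 0.38), and was higher in LNCaP (0.96, 0.47 to 1.45) and in HPr1AR with 59 and 66 reads (1.03, 0.50 to 1.56). H2BC5 was higher in each line, with 14 and 0 reads in 22Rv1 (at least 2.77) and ratios of at least 3.87 in LNCaP and 3.83 in HPr1AR. Replication-dependent histone genes have near-identical coding sequences, so a read may belong to another copy. H3-3B, a replacement histone H3.3 gene, passed in no line, with 36 and 51 reads in 22Rv1 and 54 and 103 in HPr1AR.

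Small structured RNAs were not higher in any line. None of the regions of U11, U6atac, vault and telomerase RNA genes was higher, in 5 regions of 22Rv1, 6 of LNCaP and 6 of HPr1AR, before or after centring. After centring, 5, 2 and 3 of these regions were lower in the same order of lines. Before centring their median log2 read ratios were -0.87, -0.25 and -0.13, beside 2.55, 2.35 and 2.19 over all lone exon regions. The calls of single genes that follow are also those before centring. TERC, the RNA template of telomerase, had 10 m6A and 43 IgG reads in 22Rv1 and was lower there (-1.56, 95% interval -2.72 to -0.54), while it passed in neither LNCaP (-0.21, -0.78 to 0.34) nor HPr1AR, where it had 30 and 83 reads (-0.28, -0.93 to 0.34). RNU11, the U11 RNA of the minor spliceosome, had 13 and 18 reads in 22Rv1, 14 and 25 in LNCaP and 23 and 40 in HPr1AR, with intervals that include 0 in each line. VTRNA1-3, a vault RNA, had 0 and 9 reads in 22Rv1, where it was lower (at most -1.04), 10 and 38 in LNCaP and 7 and 36 in HPr1AR, where it did not pass. SCARNA2, a guide RNA of Cajal bodies, did not pass in 22Rv1 (-0.47, -1.01 to 0.06), and its call was undetermined in LNCaP and HPr1AR, where its deposited p-value was 0.

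**Figure D4:**
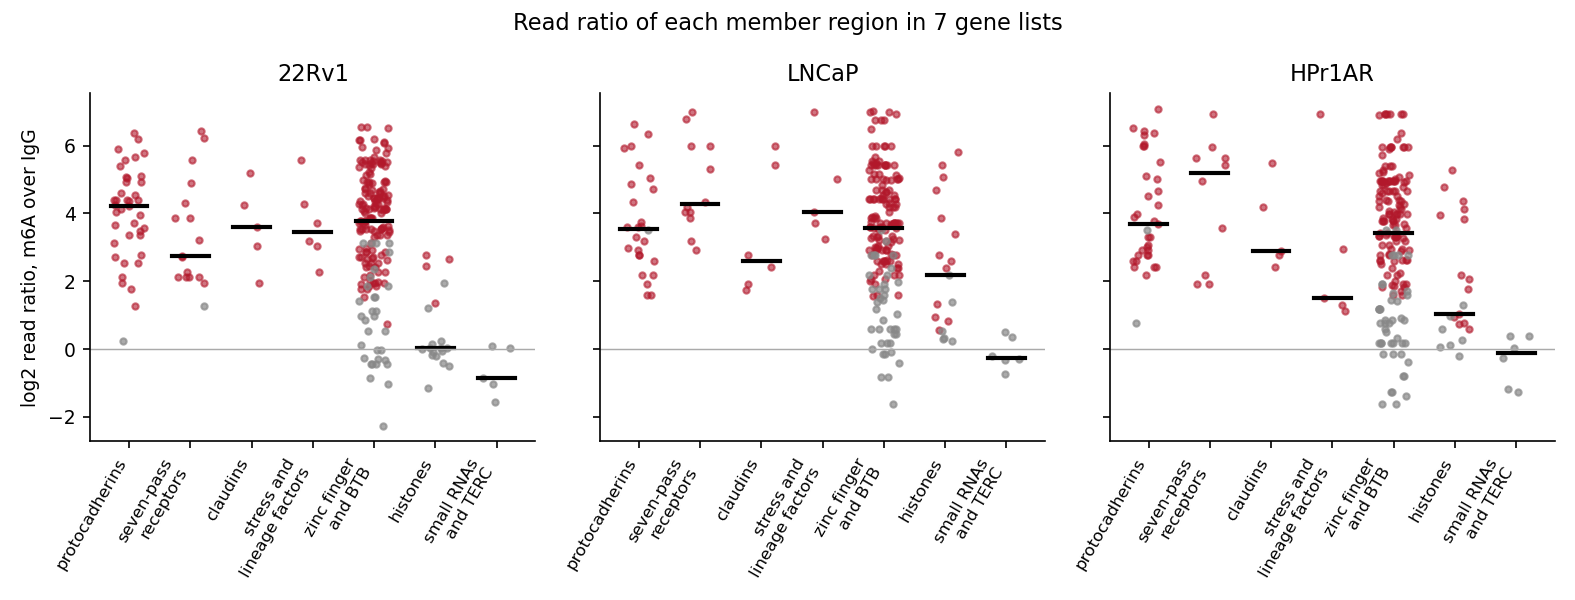
Each point is the log2 read ratio, m6A over IgG, of 1 lone exon region (vertical axis) in 7 gene lists (horizontal axis), 1 panel per line; red points were called higher, grey points were not, and black bars are medians. Protocadherin, receptor, claudin and factor genes lie mostly well above 0, histone genes have medians of 0.03, 2.18 and 1.03 in 22Rv1, LNCaP and HPr1AR, and small RNAs lie near or below 0.

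MicroRNA genes proper were higher in 4 of 5 regions in 22Rv1, 3 of 6 in LNCaP and 7 of 10 in HPr1AR. With their host genes added the counts were 13 of 14, 11 of 18 and 18 of 29, and 5, 9 and 16 after centring. MIR34A, whose microRNA is induced by p53, had 47 m6A and 0 IgG reads in 22Rv1 (at least 4.52), at least 57 and 7 in LNCaP (at least 4.20) and at least 55 and 4 in HPr1AR (at least 4.97). MIR29C, of a family that targets collagen transcripts, was higher in each line, with 18 and 8, 17 and 6, and 9 and 0 reads and ratios of 1.72 (0.44 to 3.13), 2.68 (1.27 to 4.31) and at least 2.78, although its 22Rv1 value turned to -0.42 after centring. MIR570 had ratios of 3.25 (2.00 to 4.78), 3.07 (2.03 to 4.24) and at least 3.68. These 3 genes were therefore higher in each line. MIR4786 was listed in 22Rv1 with 57 and 1 reads (6.38, 3.84 to 11.71) and in HPr1AR with 49 and 1 (6.81, 4.26 to 12.14). MIR138-1 was listed in HPr1AR alone, with 21 and 5 reads (3.26, 1.81 to 5.02), as was MIR614 with at least 62 and 49 (at least 1.53). MIR3916 was higher in HPr1AR with 18 and 10 reads (2.04, 0.85 to 3.32) and did not pass in 22Rv1 with 8 and 7 or in LNCaP with 6 and 3. MIR4712 passed in neither line that listed it, with 2 and 6 reads in LNCaP and 2 and 15 in HPr1AR. The regions are 470 to 3620 bp wide, so they hold longer precursor transcripts and their surroundings, not the mature strand alone.

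Among long non-coding RNA genes matched by symbol, 56 of 76 regions were higher in 22Rv1, 63 of 91 in LNCaP and 67 of 95 in HPr1AR, and 25, 52 and 56 after centring. MALAT1 and NEAT1 are abundant nuclear RNAs of speckles and paraspeckles, with regions that differed in their calls. The deepest MALAT1 region had 72 m6A and 101 IgG reads in 22Rv1 (0.06, -0.40 to 0.51), while another MALAT1 region of 700 bp had 29 and 1 there (5.41, 2.81 to 10.76). In LNCaP its deepest region was higher, with a ratio of at least 0.70, and in HPr1AR at least 70 and 137 reads left the call undetermined. NEAT1 was broken into 13 lone regions in 22Rv1, the most of any gene there, of which 2 were higher.

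The uniquely rebuilt lone exon regions with the most reads of their line were mostly those of abundant transcripts. ACTG1, the cytoplasmic gamma actin gene, had 82 m6A and 114 IgG reads in 22Rv1 (0.07, -0.36 to 0.49), UQCRHL, an intronless copy of a respiratory chain gene, 35 and 59 in LNCaP (0.42, -0.22 to 1.05), and S100A6, a calcium-binding protein gene, 69 and 152 in HPr1AR (0.05, -0.38 to 0.47). GSTP1, a glutathione transferase gene, had 60 and 137 there (0.00, -0.46 to 0.45). UBE2G1, a ubiquitin-conjugating enzyme gene, was higher in LNCaP, with 65 and 29 reads (2.34, 1.69 to 3.03). Regions with a deposited p-value of 0, or for which no unique pair of reads was found, were left out of this choice. In 22Rv1, 453 lone exon regions had only bounds, of which 21 had a p-value of 0. The choice takes away many strongly enriched regions, so the ratios near 0 describe these genes alone.

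Lower regions were few, and their widths ran from 20 to 950 bp. PPP2R5C, a regulatory subunit of phosphatase PP2A, was lower in 2 lines at nearly the same place, with 1 m6A and 22 IgG reads in LNCaP (-3.28, -8.65 to -0.65, adjusted p = 0.015 in the exact binomial test) and 1 and 23 in HPr1AR (-3.33, -8.70 to -0.71, adjusted p = 0.012). The other lower regions, named after their values were seen because they are so few, were ABCC4 and EIF3H in LNCaP and OLA1 in HPr1AR. In 22Rv1 they were APP with 1 and 13 reads (-3.15, -8.56 to -0.42, adjusted exact p = 0.028), TERC, VTRNA1-3, and LRRC8B, NEGR1, PPP3CA and SRPK1 with 0 m6A reads each. All but TERC and VTRNA1-3 were exon-only regions of long genes.

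At the other end stood genes with many m6A reads and none or few IgG reads. By the fold of the authors' deposited table, FZD1, FZD7 and MAGEE1 came first in HPr1AR at 31.43, GOLGB1 in LNCaP at 31.52 and GFOD1 in 22Rv1 at 30.97. GOLGB1, which encodes the Golgi protein giantin, was among the first 6 in all 3 lines, with at least 77 m6A reads in 22Rv1, 66 in LNCaP and 60 in HPr1AR and 0 IgG reads in each. Its region is a 1640 to 2220 bp stretch with promoter and exon marks in a gene of 86766 bp. GFOD1 had at least 89 and 0 reads in 22Rv1 (at least 5.44). Among regions whose reads were rebuilt uniquely, the smallest p-values belonged to ZNF837 in 22Rv1 (63 and 0 reads), SPSB1 in LNCaP (61 and 0) and MMP28, GCNT4 and CUL1 in HPr1AR (58 and 0 each). The widest regions, among them GCC1 in 22Rv1 and HPr1AR (4950 and 5000 bp), NCAM2 in LNCaP and VGF in 22Rv1, were all higher.

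Of the 2288 genes with lone exon regions in all 3 lines, 1512 (66.1%) had a higher one in each, 305 (13.3%) in 2 lines, 242 (10.6%) in 1 and 229 (10.0%) in none. Among short genes 233 of 295 (79.0%) were higher in each line and among long ones 1266 of 1978 (64.0%). Where a gene had several lone regions their calls often differed. Of 820 such genes in 22Rv1, 363 had all regions higher, 360 some and 97 none, and the same counts were 300, 489 and 163 in LNCaP and 371, 621 and 179 in HPr1AR. BCL2, an inhibitor of apoptosis, was one of the 8 genes with the smallest p-values across lines. Its exon-only region, at chr18:60794141-60795920 as the 22Rv1 table gives it (positions that do not fall on the gene in GRCh38), had 51 m6A and 0 IgG reads in 22Rv1 (at least 4.63), 60 and 1 in LNCaP (7.08, 4.55 to 12.41) and 41 and 1 in HPr1AR (6.55, 3.99 to 11.89). ENAH, a regulator of actin, had 63 and 2 reads in 22Rv1 (5.52, 3.61 to 8.60), 46 and 2 in LNCaP (5.70, 3.77 to 8.79) and 51 and 0 in HPr1AR (at least 5.28). TMEM117 had ratios of 4.84, 6.64 and 6.55. The intervals of these ratios overlap between lines for each gene that has both interval limits. The remaining genes of the 8 were PRRG4, DSTYK, ZNF837, RAB40C and PCLO. The region was chosen per line, and it lay elsewhere in the gene in LNCaP for DSTYK and ZNF837 and in 22Rv1 for PCLO.

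Most lone exon regions overlapped one of another line by at least 1 bp. Of those in 22Rv1, 80.5% overlapped one in LNCaP by at least 1 bp, and of those in LNCaP 69.1% overlapped one in 22Rv1. Between 22Rv1 and HPr1AR the shares were 79.5% and 59.6%, and between LNCaP and HPr1AR 76.8% and 67.3%, in each case as a share of the first line and then of the second. Overlapping 3′ end regions made up 84.0% and 75.4%, 84.1% and 68.0%, and 81.9% and 73.6% in the same pairs. With a reciprocal overlap of at least 50%, the shares of lone exon regions were 57.0% and 50.5%, 53.1% and 40.7%, and 55.8% and 48.3%. Genes listed in 1 line alone numbered 199 in 22Rv1, 310 in LNCaP and 653 in HPr1AR, but 54.3%, 73.2% and 65.7% of these had regions of another kind in another line.

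For overlapping lone regions with at least 20 uniquely rebuilt reads in both lines, the ratios went together. Spearman's rho, given as a description over regions that share depth and base composition, was 0.73 over 841 pairs of 22Rv1 and LNCaP, 0.81 over 901 pairs of 22Rv1 and HPr1AR and 0.81 over 758 pairs of LNCaP and HPr1AR. Median log2 read ratios were 3.28 in 22Rv1 and 3.22 in LNCaP, 2.49 in 22Rv1 and 2.48 in HPr1AR, and 2.76 in LNCaP and 2.61 in HPr1AR, and the median absolute difference within a pair was 0.76, 0.64 and 0.67. Both lines were higher in 676, 662 and 568 pairs and neither in 65, 108 and 91. In these bulk pull-downs, methylation of more molecules and methylation in more cells cannot be told apart.

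Single regions stood far from this agreement, all with 1 to 3 IgG reads on the side with the higher ratio. H4C4 had 43 m6A and 83 IgG reads in 22Rv1 (-0.40, -0.97 to 0.15) and 25 and 1 in LNCaP (5.82, 3.21 to 11.18), and in HPr1AR 47 and 63 (0.77, 0.19 to 1.34). The interval of LNCaP lay apart from both others. ASCC3, a helicase gene, had 49 and 1 reads in LNCaP (6.79, 4.25 to 12.12) and 37 and 30 in HPr1AR (1.49, 0.76 to 2.24). ARF4, a GTPase of the Golgi, had 56 and 2 in 22Rv1 (5.35, 3.43 to 8.44) and 52 and 65 in HPr1AR (0.87, 0.31 to 1.42). PYM1, which takes apart the exon junction complex, went the other way, with 25 and 13 reads in 22Rv1 (1.49, 0.47 to 2.58, and -0.64 after centring) and 23 and 1 in HPr1AR (5.71, 3.09 to 11.08). RTF1 had 14 and 15 reads in 22Rv1 (0.45, -0.71 to 1.60) and 47 and 3 in LNCaP (5.15, 3.51 to 7.48), and RAB11FIP3 47 and 20 in 22Rv1 (1.78, 1.00 to 2.61, and -0.35 after centring) and 61 and 2 in LNCaP (6.11, 4.19 to 9.19). H3C12 in LNCaP against HPr1AR (5.43 and 0.61) and GNA12 in 22Rv1 against HPr1AR (4.94 and 0.61) complete the 9. These pairs were picked for their difference, so they carry no test, and the leading windows of 2 lines need not be the same window.

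**Figure D5:**
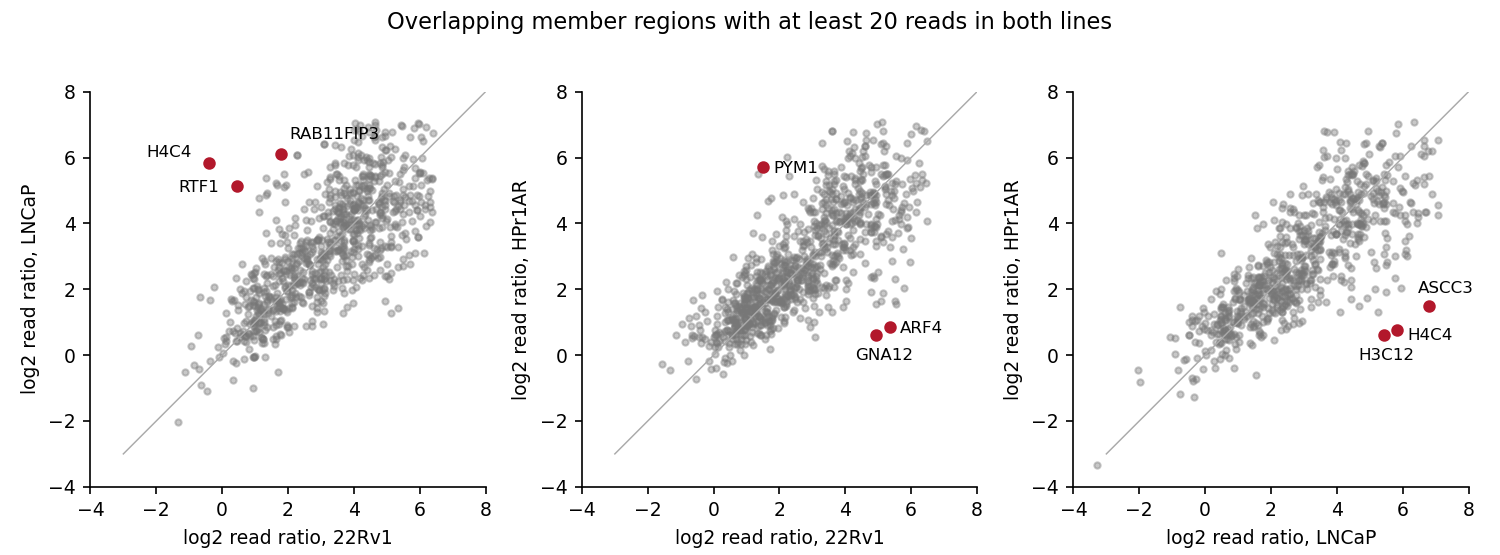
Each point is a pair of overlapping lone exon regions with at least 20 uniquely rebuilt reads in both lines, with the log2 read ratio of the line named first on the horizontal axis and of the other on the vertical axis; the grey line marks equal ratios and red points are the 3 largest differences of each pair of lines. The clouds follow the line (rho 0.73, 0.81 and 0.81 from left to right), with H4C4 at -0.40 in 22Rv1 and 5.82 in LNCaP the farthest from it.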

How the data were processed

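The authors deposited 1 table per cell line, in which windows joined into regions carry a log2 fold, a p-value and an adjusted p-value, per the file headers, with other columns for the number of windows and for windows up or down. Which aligner, counter and test the authors used is not given in the sources used here. Build hg38 is named in the submitters' processing notes, but only 16.6% of members in 22Rv1, 16.1% in LNCaP and 16.6% in HPr1AR touched their gene in GRCh38, so the deposited coordinates are printed as they stand and no sequence was read with them. The labels name triplicates, and the 22Rv1 m6A replicate 2 is not analysed here.

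The deposited fold followed a constant plus log2 of the numerator reads minus 2 times log2 of the reference reads, each with a prior. Whole reads that fit fold and p-value were found for 95.5% (22Rv1), 97.99% (LNCaP) and 99.9992% (HPr1AR) of regions with a p-value above 0, and uniquely for 95.4%, 95.8% and 99.8%. Folds shifted at random still found reads in 0.64%, 6.74% and 0.3%, so LNCaP reads are the least certain. On simulated data, exact reads were recovered in 99.93%, 98.58% and 99.98% of regions, and a log2 ratio of 2 was called in 34.5%, 20.0% and 23.0%. The simulated folds and p-values were made with the fitted formula for regions of a single window. Recovery therefore tests neither the formula nor regions of several windows. Most simulated regions were unchanged, whereas 54.4%, 37.5% and 38% of real regions were called higher, so the call rates do not carry over to the real regions. The leading window was picked for its p-value, which no correction here allows for. Intervals (95%, exact Clopper-Pearson) and the floor of 3 reads cover counting error only.

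The members, the 15 gene lists and the tests were chosen with earlier results of these data known. Named regions are those with the largest fold, smallest p-value, lowest ratio, most reads and largest width per line, genes higher in all lines by smallest p-value, largest differences between lines, and list members with most reads. Lists are symbol classes of genes mostly known to lack introns. Alternatives were other thresholds, unique reads, centring on intronic regions, marks, windows and overlaps. Python 3.11.15, pandas 2.3.3 and scipy 1.17.1 were used.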

Additional observations from a re-analysis of the deposited data

How the results depend on the processing

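Of 64 comparisons of a count, median or share with an alternative, 37 stayed within 1.5 times or within the interval, 27 moved and 0 reversed. Only medians and shares could reverse, since a count could only stay or move. Counts of a part of the members, such as exon-only regions, were bound to be smaller. Exon-only and promoter-and-exon regions taken alone gave 2063 and 2189 passing by the authors' deposited table in 22Rv1, 2299 and 2444 in LNCaP, and 2722 and 2788 in HPr1AR. Higher regions were then 1329 and 1586, 1173 and 1687, and 1382 and 2028 in the same order, and 1125 in 22Rv1 after centring. Medians moved to 1.98 (exon only) and 2.57 (promoter and exon) in LNCaP and to 1.93 and 2.43 in HPr1AR. With unique reads they were 2.35 in 22Rv1, 2.18 in LNCaP and 1.93 in HPr1AR, and after centring 0.42, 1.75 and 1.49. In bins of reads only, the gap to internal regions was 21.8, 22.1 and 22.1 points. Genes in all 3 lines numbered 1512 where members had to be higher. Centring turned named regions to -0.10 (H4C8, HPr1AR), -0.041 (H4C5, LNCaP), -0.64 (PYM1), -0.35 (RAB11FIP3), -0.63 (NEAT1), -1.38 (ZBTB10) and -0.42 (MIR29C), the last 5 in 22Rv1. The cause was not tested. An adjusted p of 0.01 left 2565, 2522 and 3045 higher in 22Rv1, LNCaP and HPr1AR. No paired analysis was possible because the tables hold no value per sample, and leaving out replicates was not run for the same reason. Simulated log2 ratios of 1 were called in 8.5%, 2.5% and 3.52%, so small enrichments were mostly not detected in that simulation. Most simulated regions were unchanged, unlike the real ones, so these shares do not give the detection rate for the members.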
